A study of Homo sapiens with 6 samples.

Results

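The cyclin-dependent kinase (CDK) inhibitor and GADD45 genes comprised 10 of the 54259 gene symbols listed in the RNA-Sequence data of MDA-MB-231 cells. They were taken by symbol and fall into 3 families, namely CIP/KIP (CDKN1A, CDKN1B and CDKN1C), INK4 (CDKN2A, CDKN2B, CDKN2C and CDKN2D) and GADD45 (GADD45A, GADD45B and GADD45G). The set was chosen by family name with the counts of shBry against shNC already known, so the members' own differences between these groups are given as a description. They entered the fit across all genes, but no p-value of theirs is given. The MDA-MB-231 line derives from human breast cancer and has a mesenchymal-like appearance. MDA-MB-231 shBry cells carry a short hairpin RNA against the transcription factor brachyury and were represented by 3 libraries. MDA-MB-231 shNC cells carry a control hairpin and were also represented by 3 libraries. Neither the hairpin sequence nor the number of clones behind each line is given in the sources used here, nor is it stated whether the libraries came from separate cultures, so p-values measure only the spread between these libraries, which may be technical.

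Total counts per library lay between 19319411 and 22985371. Values are given as raw counts or as CPM, counts scaled to the library total after TMM, a correction for differences in library composition. Brachyury itself, listed under its older symbol T, was at 0 counts in all 6 libraries, so its level gives no check of the hairpin labels. The paper describes brachyury as overexpressed in this line, yet it had no counts in the shNC libraries either. A knockdown is therefore not visible in these counts. The deposited design text calls the RNA pericardial, whereas the sample labels name MDA-MB-231. VIM, CD44, CAV1 and AXL, which this line expresses, summed to between 4929 and 5582 CPM over all libraries. They did not move alike. Mean CPM in shNC and shBry was 3864 and 3204 for VIM, and 189 and 87.6 for CAV1. It was 503 and 637 for CD44, and 907 and 1139 for AXL. The low markers ESR1, PGR, CDH1, EPCAM and GATA3 summed to between 10.4 and 13.6 CPM in shNC and between 16.3 and 18.9 CPM in shBry. Among these, EPCAM had a mean of 1.55 CPM in shNC and 4.28 in shBry, and GATA3 of 10.4 and 13.0. Of 5 mesothelial genes, MSLN was the most abundant in each library, and UPK3B and WT1 had at most 0.211 and 0.321 CPM. CALB2 had 222 counts in shNC replicate 3 and between 14 and 30 in the other libraries. The summed mesothelial level was 40.2 to 42.1 CPM in shNC and 51.4 to 57.7 CPM in shBry. The 5 leukocyte genes summed to at most 0.229 CPM, with PTPRC and TYROBP at 0. Their part in the results was not tested.

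CDKs drive the cell cycle when they are bound by a cyclin. INK4 proteins bind CDK4 and CDK6 and keep D-type cyclins away from them, which holds the retinoblastoma protein active. CIP/KIP proteins bind complexes of a cyclin with its CDK, above all those of CDK2. GADD45 proteins are small stress-induced proteins that bind PCNA, CDK1 and the kinase MAP3K4, and their genes are known for their induction in growth arrest.

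The sequences before the start sites are shown for 4 members whose levels lay apart between the groups, so that the motifs can be read in place. RefSeq gave start sites for 8 of the 10 members, in 11 windows on GRCh38.p14, and CDKN1C and GADD45A had no entry. Each window holds the 250 bases before the start, 5′ to 3′ on the strand of the gene, and capitals mark matches to the motifs described after the sequences.
CDKN1A, chr6:36678464-36678713, plus strand: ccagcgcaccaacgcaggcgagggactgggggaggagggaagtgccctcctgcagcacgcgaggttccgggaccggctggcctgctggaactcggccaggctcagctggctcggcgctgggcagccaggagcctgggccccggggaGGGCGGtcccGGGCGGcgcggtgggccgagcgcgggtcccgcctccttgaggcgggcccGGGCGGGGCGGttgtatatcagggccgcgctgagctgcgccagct
CDKN2C, chr1:50968456-50968705, plus strand: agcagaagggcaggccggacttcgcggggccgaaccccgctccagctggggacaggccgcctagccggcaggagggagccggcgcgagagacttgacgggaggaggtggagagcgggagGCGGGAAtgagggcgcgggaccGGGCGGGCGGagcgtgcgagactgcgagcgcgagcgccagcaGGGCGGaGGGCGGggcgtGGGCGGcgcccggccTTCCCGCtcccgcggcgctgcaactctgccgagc
CDKN2D, chr19:10568980-10569229, minus strand: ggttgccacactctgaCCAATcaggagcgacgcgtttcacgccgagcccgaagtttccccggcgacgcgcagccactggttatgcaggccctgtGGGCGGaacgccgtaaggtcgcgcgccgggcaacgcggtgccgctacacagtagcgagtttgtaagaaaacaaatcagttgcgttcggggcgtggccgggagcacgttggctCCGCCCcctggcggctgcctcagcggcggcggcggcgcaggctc
GADD45B, chr19:2475877-2476126, plus strand: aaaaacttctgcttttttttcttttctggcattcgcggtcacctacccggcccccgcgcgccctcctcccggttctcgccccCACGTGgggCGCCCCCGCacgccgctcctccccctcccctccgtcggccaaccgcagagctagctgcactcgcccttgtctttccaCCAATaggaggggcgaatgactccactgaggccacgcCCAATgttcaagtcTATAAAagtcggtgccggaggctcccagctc

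The motifs searched on both strands were the SP1 box (GGGCGG), an E2F string (GCGGGAA), the CCAAT box (CCAAT), the TATA box (TATAAA), the AP-1 site (TGANTCA), a CRE string (TGACGT), the CARE of ATF4 (TGATGCAA), the E-box (CACGTG) and an EGR string (GCGGGGGCG). Matches may overlap each other, as SP1 boxes do in CDKN1A and CDKN2C. The SP1 box occurred in 7 of the 11 member windows and in 42.6% of 35116 such windows of all genes. The CDKN1A window held 4 SP1 boxes, starting 104, 94, 45 and 40 bases before the start, and no other motif of the set. The CDKN2C window shown held 5 SP1 boxes and 2 E2F strings, the latter starting 131 and 34 bases before the start. An E2F string occurred in 5.52% of all windows and in no other member window. RefSeq gives CDKN2C 3 start sites, and counts per gene do not tell which of them was used. The other CDKN2C windows, starting at 50960495 and 50969995 of chromosome 1, each held an E-box and a CRE string. The window starting at 50969995 also held a CCAAT box and an SP1 box. An E-box occurred in 4 of the 11 member windows and in 6.34% of all windows. A CRE string occurred in 2 of the 11 and in 7.10% of all windows. The GADD45B window held the TATA box (31 bases before the start, 10.7% of all windows) and the EGR string (4.72% of all windows), each the only match among the member windows. It also held 2 CCAAT boxes and an E-box. Neither the AP-1 site (6.57% of all windows) nor the CARE (0.772%) matched in any member window. The GC content of the windows shown was 76.4% for CDKN1A, 77.2% for CDKN2C, 67.6% for CDKN2D and 63.2% for GADD45B. The CDKN2C windows starting at 50960495 and 50969995 had 45.6% and 48.8%. The median over all windows was 58%. These matches describe letters and not bound sites.

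The members share almost no exact stretches of 50 bases. No stretch of 50 bases in GENCODE 29 transcripts of CDKN1A, CDKN1B, CDKN1C, CDKN2C, CDKN2D or the GADD45 genes occurred in transcripts of another gene. CDKN2A and CDKN2B shared 31 such stretches with each other, 0.681% of those of CDKN2A. The coding sequences were 61.1% identical between GADD45A and GADD45B, 52.3% between CDKN2C and CDKN2D, and 50.7% between CDKN1A and CDKN1B. Within the families this identity ranged from 36.7% (CDKN1A and CDKN1C) to 67.0% (GADD45B and GADD45G). The antisense gene DINOL overlaps 4.79% of the exon bases of CDKN1A, and it is not stated whether reads were counted by strand. No other gene overlaps exons of the remaining members, except CDKN2B-AS1 with 7.88% of CDKN2A.

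CDKN1A encodes p21, the CIP/KIP protein that also binds PCNA, and lies on chromosome 6 (GRCh38, 36676460 to 36687339, plus strand). Its CPM were 289, 257 and 275 in shBry replicates 1, 2 and 3, and 65.3, 65.8 and 56.8 in the corresponding shNC replicates. Each shBry library therefore lay above all shNC libraries. The fitted log2 fold change of shBry relative to shNC was 2.13 (standard error 0.09), a 4.37-fold higher level, which ranked 237th from the top among 15277 tested genes. Of the CIP/KIP genes, CDKN1B encodes p27, which holds cells in quiescence and is mainly controlled through protein decay. It lies on chromosome 12 from 12715058 to 12722371. Its CPM were 24.2, 25.7 and 28.6 in shBry and 23.9, 21.3 and 22.5 in shNC. The groups did not overlap, although the lowest shBry library and the highest shNC library were nearly equal. The log2 fold change was 0.21 (standard error 0.11), under the fold change limit. CDKN1C encodes p57, an imprinted inhibitor of embryonic tissues on chromosome 11 from 2883213 to 2885773. It had 5, 1 and 3 counts in shBry and 3, 2 and 4 counts in shNC, which sum to 9 in either group. At this depth a difference was not detectable, and the gene was removed by the expression filter.

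The INK4 genes that were listed with counts were both lower in shBry. CDKN2C, on chromosome 1 from 50960745 to 50974633 on the plus strand, encodes p18. It had 59, 113 and 82 counts in the shBry libraries and 828, 829 and 759 in the shNC libraries. In CPM these were 3.18, 4.76 and 3.64 in shBry against 37.9, 39.2 and 38.01 in shNC. The groups lay far apart, and the highest shBry library, replicate 2, was still well below the lowest shNC library. The log2 fold change was -3.30 (standard error 0.15), a 9.86-fold higher level in shNC, and 14 tested genes had a more negative value. Its shBry values varied with a coefficient of variation of 21.2%, where counting error alone gives 10.9%, while the shNC values varied by 1.83% against 3.52%. CDKN2D, on chromosome 19 from 10566462 to 10569059 on the minus strand, encodes p19. Its CPM were 17.3, 15.1 and 15.6 in shBry and 27.4, 28.1 and 25.8 in shNC. These values did not overlap either. The log2 fold change of CDKN2D was -0.76 (standard error 0.11), so it was 1.70-fold higher in shNC. The difference of CDKN2C between the groups was thus much larger than that of its paralog CDKN2D.

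**Figure D1:**
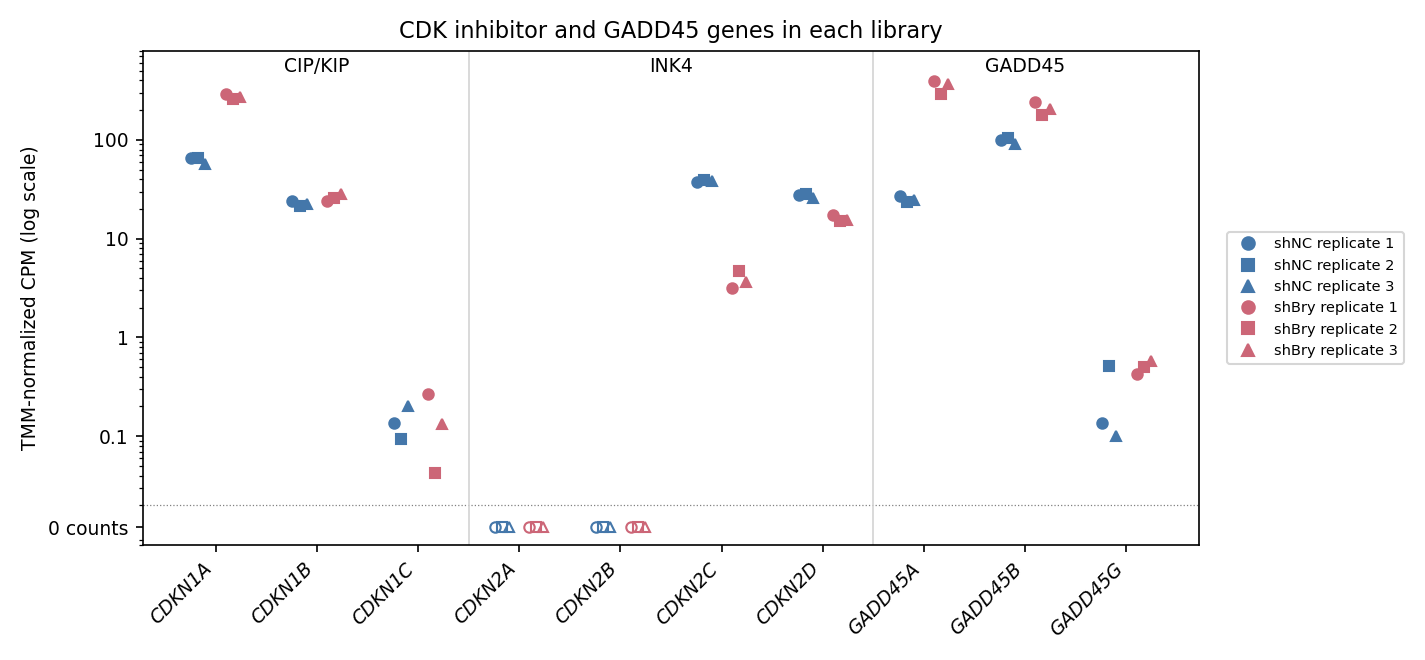
TMM-normalized CPM (log axis) of the 10 genes in each of the 3 shNC (blue) and 3 shBry (red) libraries, with a symbol for each replicate and open symbols on the lowest line for 0 counts. GADD45A stands between 293 and 398 CPM in shBry and between 23.5 and 26.8 in shNC, CDKN2C is the lowest tested INK4 gene in shBry, and CDKN2A and CDKN2B are at 0 throughout.

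CDKN2A, which encodes p16 and ARF, and CDKN2B, which encodes p15, were listed at 0 counts in each of the 6 libraries. They lie next to each other on chromosome 9, from 21967753 to 21995301 and from 22002903 to 22009363, both on the minus strand. With 0 counts observed, a level of 3 counts remains possible, or 0.126 to 0.162 CPM depending on the library, and this limit covers counting error only. The genes around them were also listed at 0. From HACD4 to IZUMO3, 26 successive genes that are in the table and annotated as protein-coding, lincRNA or antisense had no count in any library, of which 24 were protein-coding. Of 20 genes of other annotated types in the same stretch, mostly pseudogenes, 19 were also at 0. The exception was CLIC4P1, a processed pseudogene from 22747700 to 22748234, with 6, 1 and 7 counts in shBry and 5, 7 and 5 in shNC. Such a copy resembles its parent gene CLIC4, and reads of either may be assigned to the other. CDKN2A-AS1, which was not placed by symbol, was at 0. This run spans 3.55 Mb, from 20999515 to 24545946 of GRCh38. Many of its members are interferon genes, which most cells do not express. It also holds MTAP, the gene of a methionine salvage enzyme, KLHL9, the gene of an ubiquitin ligase adaptor, and HACD4, the gene of a fatty acid elongation enzyme. Over the whole table, 3674 of 18800 protein-coding symbols (19.5%) had no count in any library.

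Outside the run the counts returned on either side. FOCAD and MLLT3, on the side of HACD4, had 146 and 209 counts summed over the shBry libraries and 124 and 409 over the shNC libraries. TUSC1, the first gene after IZUMO3, had 643 and 671 counts in the same order, and PLAA further on had 2781 and 2264. The boundary was at the same genes in shBry and in shNC, apart from 3 counts of FOCAD-AS1 in the shNC libraries. Of the 22 genes in a list of neighbours of CDKN2A and CDKN2B, 12 were at 0 and 8 were tested. Of these 8, 2 were called higher (IFT74 and C9orf72) and 1 lower (MLLT3) in shBry. This is 37.5% called, close to the 32.4% of all tested genes. Loss of the CDKN2A region is on record for MDA-MB-231, but from RNA counts a lost gene and a silent gene cannot be told apart.

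**Figure D2:**
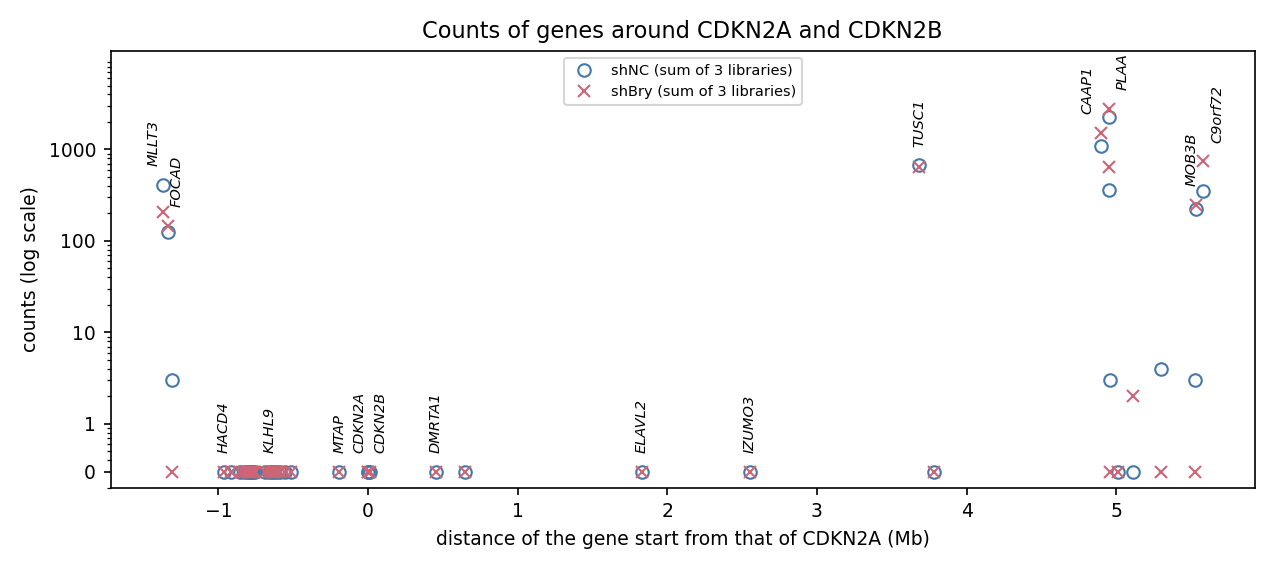
Counts summed over the 3 libraries of each group (log axis, 0 drawn on the lowest line) for protein-coding, lincRNA and antisense genes around CDKN2A, plotted by the distance of their start from that of CDKN2A in Mb. Circles are shNC and crosses are shBry, and both lie at 0 for all 26 genes of these types from HACD4 to IZUMO3 and at 671 and 643 at TUSC1.

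GADD45A had the largest difference of all members. This gene, on chromosome 1 from 67685061 to 67688338 on the plus strand, had 7393, 6957 and 8269 counts in shBry and 585, 497 and 491 in shNC. In CPM these were 398, 293 and 367 against 26.8, 23.5 and 24.6, with no overlap. Its log2 fold change was 3.82 (standard error 0.12), a 14.1-fold higher level in shBry, and it ranked 51st from the top among all tested genes. GADD45B, on chromosome 19 from 2476122 to 2478259 on the plus strand, is known as a gene raised by TGF-beta and by NF-kappa-B. Its CPM were 242, 178 and 206 in shBry and 101, 104 and 89.9 in shNC. These groups did not overlap, and the log2 fold change was 1.09 (standard error 0.11), a 2.12-fold higher level. GADD45G, on chromosome 9 from 89605013 to 89606555, had 8, 12 and 13 counts in shBry and 3, 11 and 2 in shNC. Its groups overlapped because shNC replicate 2 lay among the shBry libraries. It passed the expression filter mainly through the shBry libraries, and its log2 fold change of 0.98 had a standard error of 0.57. Without shNC replicate 2 this was 2.01, and without shNC replicate 3 it was 0.60, so the value rested on single libraries. At 2 to 13 counts per library a change of GADD45G could not be read from these data.

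Within shBry, replicates 1 and 2 lay at opposite ends for several members. Replicate 1 had the highest CPM of CDKN1A, CDKN2D, GADD45A and GADD45B and the lowest of CDKN2C, while replicate 2 had the lowest CPM of CDKN1A, CDKN2D, GADD45A and GADD45B and the highest of CDKN2C. The coefficient of variation over shBry was 15.2% for GADD45A and 15.4% for GADD45B, where counting error gives 1.15% and 1.50%. Over shNC it was 6.75% and 7.42%. Over all genes, too, these 2 libraries formed the least alike pair within a group, where chi-square divided by its degrees of freedom was 17.1, against 5.04 to 12.1 for the other pairs. The part of this spread in the results was not tested. With each library left out in turn, the log2 fold change of GADD45A stayed between 3.72 and 3.92, that of CDKN1A between 2.03 and 2.16, that of CDKN2C between -3.50 and -3.19 and that of CDKN2D between -0.83 and -0.74. GADD45B lay between 0.96 and 1.17, and CDKN1B between 0.14 and 0.26.

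Of the 10 members, 7 passed the expression filter, and 5 of these passed the limits used for all genes (Benjamini-Hochberg adjusted p below 0.05 in edgeR's quasi-likelihood test and a fold change above 1.5), 3 higher and 2 lower in shBry. Over all 15277 tested genes 32.4% passed these limits, 17.1% as higher and 15.2% as lower. For 6 of the 7 tested members the 3 shBry values did not overlap the 3 shNC values, against 59.5% of all tested genes. Because the members were chosen with this difference known, nothing was read from these counts.

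**Figure D3:**
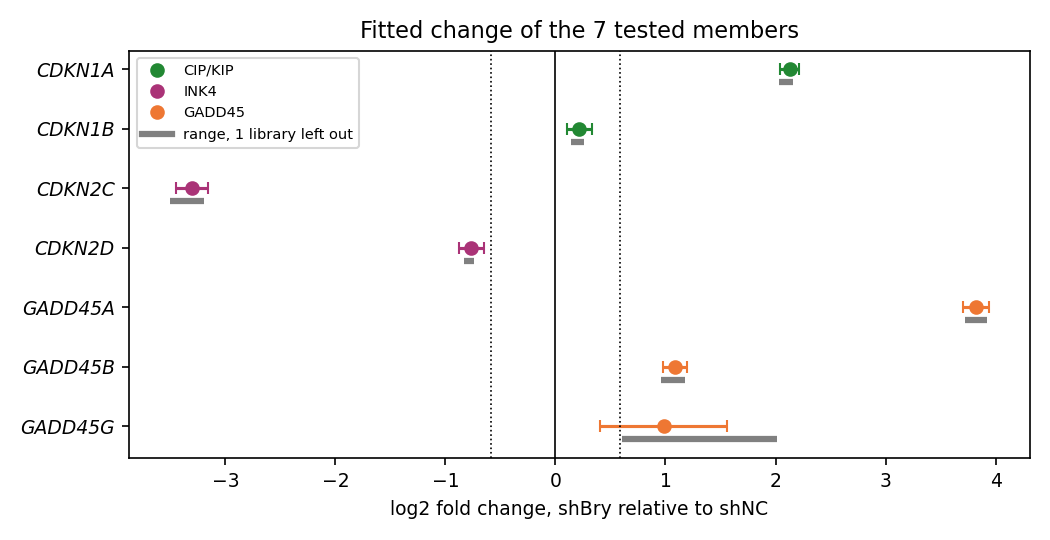
Log2 fold change of shBry relative to shNC for the 7 tested members, with bars of 1 standard error (edgeR), dotted lines at the fold change limit of 1.5 and grey bars for the range with 1 library left out. CDKN1A (2.13), GADD45A (3.82) and GADD45B (1.09) lie to the right, CDKN2C (-3.30) and CDKN2D (-0.76) to the left, and GADD45G has the widest range, from 0.60 to 2.01.

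Levels of different genes were compared per kb of exon, with the exon length taken over all GENCODE 29 transcripts of a gene, because longer transcripts give more reads. In shNC, GADD45B had the highest level with 45.9 CPM per kb, followed by CDKN1A with 20.5, CDKN2D with 18.0, GADD45A with 12.1, CDKN2C with 11.6, CDKN1B with 8.03, GADD45G with 0.191 and CDKN1C with 0.0582. The ranges of CDKN1A and CDKN2D overlapped, as did those of GADD45A and CDKN2C and those of GADD45G and CDKN1C, so these neighbours did not differ beyond their spread. The order was another in shBry. GADD45A was the highest with 170 CPM per kb, ahead of GADD45B with 97.6 and CDKN1A with 89.8, and the last 2 overlapped. CDKN2D with 10.6 and CDKN1B with 9.31 CPM per kb overlapped too, and CDKN2C followed with 1.16.

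Summed over its genes, the CIP/KIP family had between 26.7 and 30.0 CPM per kb in the shNC libraries and between 93.3 and 104 in the shBry libraries. CDKN1A made up 69.7% to 73.9% of this sum in shNC and 89.8% to 91.6% in shBry, and CDKN1B nearly all of the rest. The INK4 sum lay between 28.6 and 30.5 CPM per kb in shNC and between 11.4 and 12.5 in shBry. CDKN2C held 38.5% to 40.0% of the INK4 sum in shNC and 7.69% to 12.5% in shBry, so that CDKN2D made up most of what was left. By this measure the CIP/KIP and INK4 sums were of similar size in shNC and far apart in shBry. Such comparisons between genes and families depend on the exon lengths used, since counts per gene do not tell which transcripts were present. The GADD45 sum lay between 54.0 and 60.3 CPM per kb in shNC and between 225 and 306 in shBry, and GADD45A held 18.8% to 21.997% of it in shNC and 62.9% to 64.7% in shBry. In bulk RNA, a different share of cells with a transcript and a different amount per cell cannot be told apart.

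**Figure D4:**
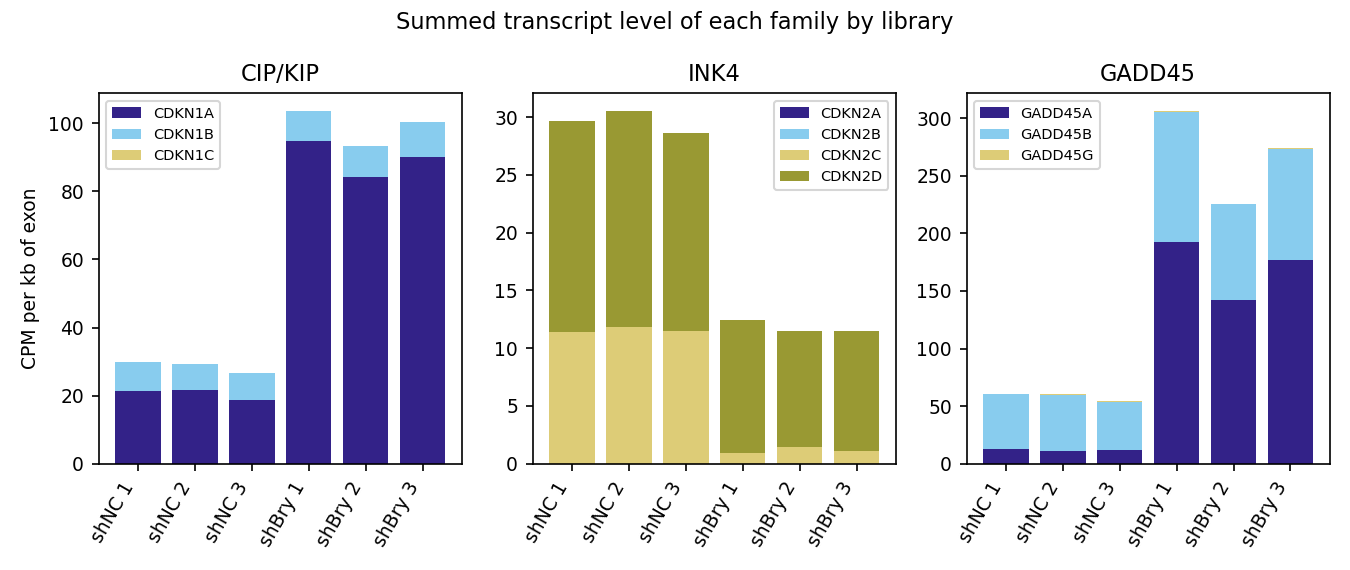
Stacked CPM per kb of exon of the genes of each family in each library, with an axis starting at 0 in each panel and a scale of its own. The CIP/KIP and GADD45 columns are higher in the 3 shBry libraries, the INK4 columns are lower, and CDKN2C shrinks to a thin band of the INK4 column in shBry.

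The question of which kinases and cyclins were present beside the inhibitors was addressed with a list of 14 binding partners, all of which were tested in the same edgeR fit. In shBry 3 were called higher and 7 lower, and 4 were not called (71.4% called, against 32.4% of all tested genes), with a median log2 fold change of -0.46 against 0.03 over all tested genes. This list and the gene lists below were chosen with earlier results of these data known. Their shares called are therefore a description, and nothing was read from an excess over all genes. Among the kinases, CDK6, a target of INK4 proteins, rose from 22.5 ± 2.25 to 50.2 ± 5.64 CPM (mean ± SD, n = 3 as for all such values; log2 fold change 1.16 with standard error 0.12, edgeR adjusted p = 1.44e-06). CDK4, the other INK4 target, was not called, with 435 ± 18.6 CPM in shNC and 462 ± 52.7 in shBry and a log2 fold change of 0.09 (standard error 0.09, edgeR adjusted p = 0.44). CDK2, the main kinase bound by p21 and p27, fell from 158 ± 4.86 to 90.3 ± 1.53 CPM (log2 fold change -0.81, edgeR adjusted p = 8.94e-07). The mitotic kinase gene CDK1, whose protein GADD45 proteins bind, fell from 77.1 ± 18.7 to 48.8 ± 5.62 CPM (log2 fold change -0.66, edgeR adjusted p = 0.00178). Per kb, CDK4 stood at 137 CPM in shNC and 146 in shBry, CDK2 at 40.6 and 23.2, and CDK6 at 1.83 and 4.09, so CDK4 was the most abundant of the 3 at the RNA level in either group.

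The D-type cyclins, partners of CDK4 and CDK6, did not move alike. CCND2 rose from 45.9 ± 1.30 to 120 ± 2.59 CPM (log2 fold change 1.39, edgeR adjusted p = 6.44e-09). CCND1 had a log2 fold change of 0.14 (edgeR adjusted p = 0.116) and CCND3 of -0.28 (edgeR adjusted p = 0.0159), the latter under the fold change limit. Of the cyclins that work with CDK2, CCNE2 fell with a log2 fold change of -1.17 and CCNA2 with -0.72 (edgeR adjusted p = 3.77e-04 and 6.22e-05), while CCNE1 had -0.25 and was not called (edgeR adjusted p = 0.12). CCNA1, a germ-line cyclin of low level, rose from 5.10 ± 0.743 to 8.66 ± 1.16 CPM (log2 fold change 0.76, edgeR adjusted p = 0.00205). The mitotic cyclin genes CCNB1 and CCNB2 fell with log2 fold changes of -0.64 and -1.05 (edgeR adjusted p = 4.08e-05 and 3.4e-07). PCNA, the replication clamp bound by p21 and GADD45 proteins, fell from 160 ± 12.7 to 60.01 ± 6.10 CPM (log2 fold change -1.41 with standard error 0.10, edgeR adjusted p = 3.16e-08). Among the partners, the calls of CDK1 and CCNB1 rested on single libraries. CDK1 came under the fold change limit without shBry replicate 1 (log2 fold change -0.58) or without shNC replicate 3 (-0.50), and CCNB1 without shBry replicate 2 (-0.57).

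**Figure D5:**
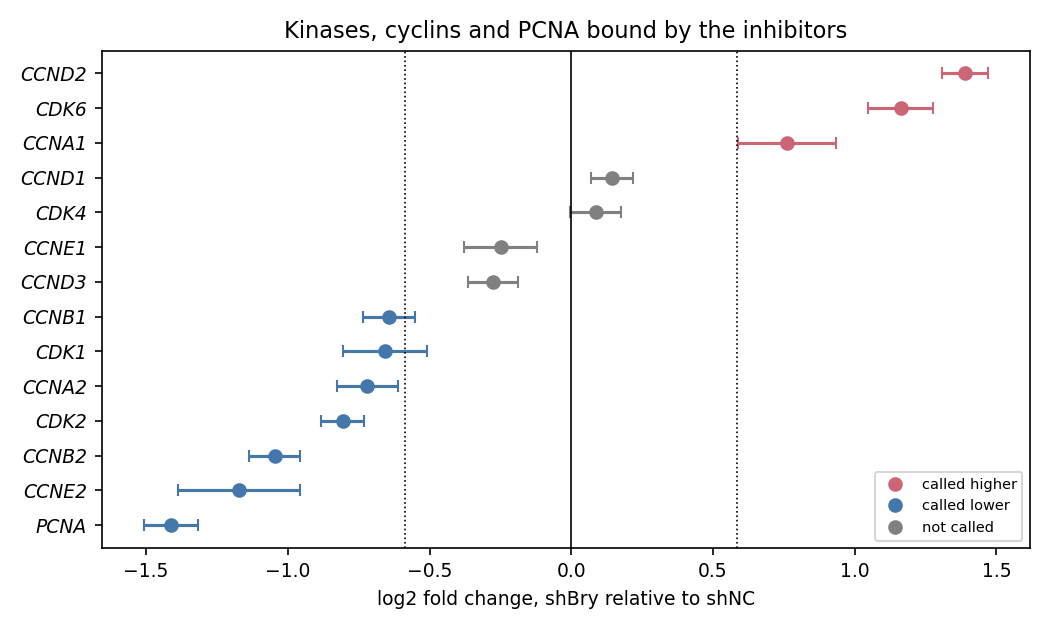
Log2 fold change of shBry relative to shNC of the 14 binding partners, ordered by value, with bars of 1 standard error (edgeR) and dotted lines at the fold change limit of 1.5. CCND2 (1.39), CDK6 (1.16) and CCNA1 (0.76) are called higher, PCNA (-1.41) is the lowest of 7 called lower, and CDK4 and CCND1 lie near 0.

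CDK inhibitor proteins are removed by ubiquitin ligases, and 16 genes of this machinery were tested. Of these, 5 fell, none rose and 11 were not called, which is 31.25% called and close to the 32.4% of all tested genes, with a median log2 fold change of -0.29. SKP2, the receptor that brings p27, p21 and p57 to the SCF ligase, fell from 92.7 ± 10.5 to 24.1 ± 2.56 CPM (log2 fold change -1.94 with standard error 0.11, edgeR adjusted p = 5.39e-09). CKS1B, its cofactor, and SKP1, the adaptor of the same ligase, were also called lower (log2 fold change -0.71 and -0.67). UBAC1, a subunit of the ligase KPC that acts on p27, fell with -0.99, and CDC20, an activator of the anaphase-promoting complex, with -0.91 (edgeR adjusted p = 5.49e-07 and 1.03e-06). The scaffold genes CUL1 and RBX1 were not called (log2 fold change -0.17 and -0.21).

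Of 14 other CDK regulators, 1 rose, 3 fell and 10 were not called, or 28.6% called against 32.4% of all tested genes. CDC25C, a phosphatase that activates CDK1, fell from 41.7 ± 1.37 to 18.8 ± 2.33 CPM (log2 fold change -1.16, edgeR adjusted p = 1.33e-06). HEXIM2, an inhibitor of the transcription kinase CDK9, fell with a log2 fold change of -1.26 (edgeR adjusted p = 1.11e-05), and CDK2AP1, which encodes a CDK2-associated protein, with -0.70. CDKN2AIP, whose protein binds ARF, rose from 6.51 ± 0.181 to 10.7 ± 0.134 CPM (log2 fold change 0.71, edgeR adjusted p = 6.37e-04), in cells with CDKN2A at 0 counts. The CDK1-inhibiting kinases WEE1 and PKMYT1 did not pass the limits (-0.13 and -0.14 on the log2 scale). The names CDKN3, CDKN2AIPNL and GADD45GIP1 resemble those of the members, but these genes are not of the same families, and none was called (-0.56, -0.20 and 0.03).

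Factors known to act on the members' promoters were examined with a list of 31 genes, of which 30 were tested. In shBry 9 rose and 8 fell, and 13 were not called (56.7% called, against 32.4% of all tested genes). The median log2 fold change was 0.03, equal to that of all tested genes. This list, too, was chosen with earlier results known, so its share called is a description. The risers were led by EGR1, an early growth response factor, which rose from 7.05 ± 0.454 to 79.6 ± 5.33 CPM (log2 fold change 3.50, edgeR adjusted p = 1.4e-11). The stress factor ATF3 rose from 11.6 ± 0.411 to 95.7 ± 7.78 CPM (log2 fold change 3.05, edgeR adjusted p = 2.41e-11). KLF4, an activator of CDKN1A, rose from 35.8 ± 1.82 to 164 ± 10.7 CPM (log2 fold change 2.20, edgeR adjusted p = 1.57e-10). KLF6, DDIT3, CEBPB, MYC, FOXO3 and ATF4 also rose, with log2 fold changes of 1.66, 1.93, 1.59, 1.45, 1.01 and 0.62. MYC represses CDKN1A, so a repressor and an activator of this gene both rose at the RNA level. The part of any listed factor in the levels of the members was not tested. Other promoter factors fell, among them TP73, FOXO4 and TFAP2A with log2 fold changes of -1.29, -0.81 and -0.97. The chromatin genes EZH2, CBX7 and HDAC1 fell with -0.62, -0.78 and -0.77. SP1 was not called (-0.15).

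The kinase cascade from MAP3K4 to p38 and JNK, which GADD45 proteins switch on, had 11 tested genes. Of these, 1 was called lower and none higher (9.09% called, against 32.4% of all tested genes), with a median log2 fold change of -0.01. MAP2K6, a kinase that activates p38, had 76, 60 and 62 counts in shNC and 7, 6 and 4 in shBry (log2 fold change -3.55, standard error 0.33). It passed the expression filter through the shNC libraries alone, so a difference was built into its being tested, and its call supports nothing about the cascade. The call is lost where at least 10 counts are asked of every library, since the gene is then not tested. MAP3K4 itself had a log2 fold change of -0.18 (edgeR adjusted p = 0.211), and MAPK14, which encodes p38 alpha, had -0.32 and stayed under the fold change limit.

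Downstream of the inhibitors, 12 genes of the RB and E2F families were tested, of which 2 rose, 5 fell and 5 were not called. This is 58.3% called, against 32.4% of all tested genes, with a median log2 fold change of -0.36. As with the other lists, this share is a description, since the list was chosen with earlier results known. E2F1, an activator of replication genes, fell from 134 ± 8.22 to 47.8 ± 1.28 CPM (log2 fold change -1.49, edgeR adjusted p = 4.88e-09) and also counts among the factors of the members' promoters. E2F8 fell from 21.1 ± 2.43 to 6.18 ± 0.906 CPM (log2 fold change -1.77, edgeR adjusted p = 2.88e-07). E2F5 rose from 11.7 ± 1.98 to 33.8 ± 2.40 CPM (log2 fold change 1.53, edgeR adjusted p = 4.18e-07). RB1, the gene of the retinoblastoma protein, was not called (-0.15).

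To see whether genes beside the members moved with them, all protein-coding genes within 100 kb of a member were taken from GENCODE 29. Of 23 such genes that were tested, 3 rose, 5 fell and 15 were not called (34.8% called, close to the 32.4% of all tested genes, median log2 fold change -0.16). FAF1, which lies 482 bases from CDKN2C and encodes an apoptosis-related ubiquitin-binding protein, had 66.4 CPM in shBry and 67.4 in shNC (log2 fold change -0.02, edgeR adjusted p = 0.854), beside the 9.86-fold difference of CDKN2C. GNG12, the only tested neighbour of GADD45A, had a log2 fold change of 0.24 (edgeR adjusted p = 0.0642). LMNB2, which encodes lamin B2, and GNG7 lie near GADD45B and fell with -0.97 and -1.18, opposite to GADD45B itself. Beside CDKN1A, CPNE5 rose with 1.52 and the splicing factor gene SRSF3 had -0.30. KRI1, 425 bases from CDKN2D, had -0.15 and was not called, while AP1M2, 3612 bases away, fell with -1.40 (edgeR adjusted p = 6.56e-08).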

How the data were processed

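According to the paper, total RNA of MDA-MB-231 shBry and shNC cells was sequenced by Shanghai Novelbio. Of each group, 3 libraries were analysed here, grouped by their labels. The authors deposited raw counts, whole numbers of reads per gene symbol, without normalization. The submitters' processing notes name HISAT2 2.0.4, HTSeq and GRCh38. The annotation, the strand setting and the statistical test are not given in the sources used here.

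Genes were filtered with filterByExpr (minimum count 10), scaled with TMM and tested in R 4.3.3 with edgeR 4.0.16 (glmQLFit and glmQLFTest, the quasi-likelihood test), without a block. Genes were called at a Benjamini-Hochberg adjusted p below 0.05 over 15277 genes and a fold change limit of 1.5, the limit the authors used. Standard errors were the log2 fold change divided by the square root of F. The fit was tested on simulated data. The members, gene lists, tests and alternatives were chosen with earlier results of these data known. The motifs and the 100 kb window were chosen after the members' values were seen.

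Named were all members, all tested binding partners and up to 3 called genes of the smallest adjusted p in each other list. Further genes (CKS1B, SKP1, CUL1, RBX1, CDK2AP1, WEE1, PKMYT1, CDKN3, CDKN2AIPNL, GADD45GIP1, other promoter factors, MAP3K4, MAPK14, RB1 and the neighbours) were chosen after their values were seen. GENCODE 29 (GRCh38) gave locations, exon lengths and overlaps by symbol. A gene of these lists, and a list tied to it, are not reported here.

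Alternatives were no TMM scaling, DESeq2 1.42.0, limma-voom (limma 3.58.1), other filters and limits, a replicate block and each library left out. Depth was 19319411 to 22985371 counts per library.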

Additional observations from a re-analysis of the deposited data

How the results depend on the processing

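Of the 10 members, 5 were called with 3 higher and 2 lower, and 4 to 6 under the alternatives, where 32.4% of all tested genes were called in the main fit. The members were chosen with this difference known, so nothing was read from these counts. CDKN2D dropped out at a fold change limit of 2, and GADD45G was added without shNC replicate 2 (log2 fold change 2.01). Over all genes 4945 were called, 4891 without TMM scaling, 4632 with DESeq2, 4953 with limma-voom, 5334 without a filter, 4432 with at least 10 counts in every library and 4587 to 5025 with a library left out. In the lists, leaving a library out gave 9 to 10 partners, 5 to 6 turnover genes and 16 to 17 promoter factors. It gave 3 to 5 other CDK regulators and 6 to 9 RB and E2F genes, so some calls near the limits rested on single libraries.

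At a fold change limit of 2, 2297 genes were called, and in the lists 5 partners, 1 turnover gene, 11 promoter factors, 2 other CDK regulators, 3 RB and E2F genes and 1 neighbour of CDKN2A. Without a limit these were 8139 genes over all, 8 other CDK regulators and 6 genes of the MAP3K4 cascade. With at least 10 counts in every library, 0 genes of that cascade were called by edgeR, since MAP2K6 was no longer tested. The log2 fold change of CDK4 turned to -0.0012 without shBry replicate 1, against up to 0.15 without another library. Of 508 values of single named genes under the alternatives, 493 kept their direction and side of the limits, 12 lost and 2 gained a call, and 1 turned sign.

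With the replicate number as a block, 4914 genes were called and the members' and lists' counts were the same as without it. Same-numbered libraries correlated at 0.18, -0.08 and -0.03 in their deviations from the group means, so the numbers were not taken as pairs. Depth limits CDKN1C and GADD45G, with at most 13 counts per library.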
